A study of Mus musculus with 15 samples.

Results

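The 32 genes described here encode lysosomal hydrolases, lysosomal membrane proteins and their helpers. They were chosen by name, with earlier results of these data known. They comprise 5 membrane proteins, 9 cathepsins and other peptidases, 9 glycosidases and sulfatases, 4 lipid hydrolases, activators and carriers, 3 parts of the proton pump, and the regulator Tfeb with the progranulin gene Grn. All 32 were found among the 34554 features of the count tables and all passed the filter on low counts, which left 16462 features to test. The data are RNA sequencing libraries of mouse pancreatic duct organoids, hollow epithelial cultures grown in Matrigel. Of the 5 lines, 3 were inducible (A217, A220 and A225) and carried every allele needed for doxycycline to switch on CA19-9, a sialylated Lewis glycan that mice do not make. The other 2 lines (A218 and A223) were genetic negatives that lacked a required allele, which the labels do not name. Doxycycline was given at 1 µg/ml for 0, 4 or 24 h to each line, giving 15 libraries and 1 library per line and time, and all cultures were harvested together. All cultures, the 0 h ones included, were kept in medium with nicotinamide, N-acetylcysteine, the TGF-β receptor inhibitor A 83-01 and the growth factors gastrin, EGF, R-spondin, FGF10 and Noggin. The medium was renewed a day before harvest. Replicates here are lines, and the number of animals behind them is not in the labels, so a p-value reflects how far these lines spread.

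Lysosomes are acidic compartments in which proteins, glycans, lipids and nucleic acids from endocytosis and autophagy are taken apart. A proton pump in the membrane keeps the lumen acidic, hydrolases with acid pH optima do the cutting, and heavily glycosylated membrane proteins line the inner face. The transcription factor TFEB, held in the cytoplasm by mTORC1 when nutrients are plentiful, binds the CLEAR element in promoters of many lysosomal genes and raises their transcription.

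Because the CLEAR element is the shared regulatory sequence of this gene class, promoter windows of 250 bases before to 50 bases after each annotated start were read from RefSeq on GRCm38.p6. A window was present for 27 of the 32 genes, 31 windows in all; Asah1, Atp6v1h, Ctsb, Ctsh and Npc1 had none in that table and are only named. The E-box CACGTG and the longer CLEAR core TCACGTGA were searched. Both are palindromes, so a match on a strand is a match on the other, and every CLEAR core contains an E-box. The E-box was in 12 of the 27 genes (44.4%), against 8.09% of the 27025 genes with a window, and the CLEAR core was in 5 (18.5%), against 1.12%. The matches of the 5 genes with a CLEAR core are shown, with those of Lamp1, which held 4 E-boxes. Of each window only the stretch around the matches is printed, with up to 25 bases on either side and none past base 30 after the start, and Ctsd has 2 such stretches. Each reads 5′ to 3′ on the gene's strand, with E-boxes and CLEAR cores in capitals.
Atp6v0d1: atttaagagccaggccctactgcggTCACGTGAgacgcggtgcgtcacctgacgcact
Ctsa: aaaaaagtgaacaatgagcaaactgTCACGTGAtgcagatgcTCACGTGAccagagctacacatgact
Ctsd: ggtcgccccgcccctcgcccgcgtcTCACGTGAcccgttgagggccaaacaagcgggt
Ctsd, farther upstream: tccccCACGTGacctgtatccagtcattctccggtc
Gla: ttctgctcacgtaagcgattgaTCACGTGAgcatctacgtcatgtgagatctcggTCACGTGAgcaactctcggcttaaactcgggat
Mcoln1: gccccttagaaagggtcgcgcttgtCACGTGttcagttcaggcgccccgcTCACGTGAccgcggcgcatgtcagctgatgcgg
Lamp1: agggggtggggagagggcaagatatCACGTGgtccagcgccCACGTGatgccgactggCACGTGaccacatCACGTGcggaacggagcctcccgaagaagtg
On GRCm38.p6 these lie at chr8:105566036-105566093 (minus strand) for Atp6v0d1, chr2:164833735-164833802 (plus) for Ctsa, chr7:142387894-142387951 and chr7:142388042-142388077 (minus) for Ctsd, chrX:134601168-134601255 (minus) for Gla, chr8:3500423-3500505 (plus) for Mcoln1 and chr8:13159075-13159176 (plus) for Lamp1. The CLEAR core of Atp6v0d1 began at base -4 from the RefSeq start, that of Ctsd at base -99 and its separate E-box at base -245, and the E-boxes of Lamp1 began at bases -61, -45, -28 and -15. A match is a match of letters in a window and does not show that a factor was bound.

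The libraries held between 47915632 and 59411540 estimated counts. EGFP, the added sequence that marks the induced alleles, was at 0.341 to 0.737 CPM (counts normalised to library size, with TMM scaling) at 0 h, 259 to 340 CPM at 4 h and 270 to 385 CPM at 24 h in inducible lines, and did not exceed 0.345 CPM in a negative line. All 11 duct markers averaged at least 1 CPM, with Krt8 at 4530 CPM, and the summed level of the list was 14200 to 16700 CPM at 24 h, against 10600 to 12800 CPM at 0 h. Of the 8 macrophage markers, which matter here because macrophages are rich in lysosomes, 2 averaged at least 1 CPM (Cd14 at 83.7 CPM and Csf1r at 1.44 CPM), and Adgre1 and C1qa were at 0 in every library. Their summed level was 78.7 to 105 CPM at 24 h, against 79.4 to 105 CPM at 0 h. Acinar, endocrine, fibroblast and endothelial lists summed to at most 6.9 CPM in any library, with Ptf1a, Cpa1, Ins1, Ins2, Gcg, Ppy and Emcn at 0. Whether the higher sum of duct markers at 24 h has a part in the changes at 24 h was not tested. In bulk RNA, fewer cells of a type and less RNA per cell cannot be told apart.

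Per length, the aspartic protease Ctsd had the highest level of the 32 genes, 569 ± 31.1 TPM (kallisto's length-corrected share of all transcripts) at 0 h (SD, n = 5). Lamp1, a main protein of the lysosomal membrane, followed at 267 ± 3.80 TPM, the acid ceramidase Asah1 at 252 ± 20.5 TPM, the saposin precursor Psap at 189 ± 7.36 TPM and the cysteine protease Ctsl at 181 ± 12.7 TPM. The lowest levels were those of Tfeb (5.50 ± 0.841 TPM), the sulfatide sulfatase Arsa (4.90 ± 0.522 TPM) and the cysteine protease Ctsf (2.11 ± 0.262 TPM). Of the 31 pairs of neighbours in this order, 20 had overlapping ranges over the 5 lines at 0 h; Ctsd stood apart from Lamp1, and Asah1 from Psap. The summed level of the 32 genes ranged over 2706 to 2860 TPM at 0 h and 2970 to 3147 TPM at 24 h. Every 24 h library thus lay above every 0 h library. At 4 h the range was 2637 to 2966 TPM. Abundant genes weigh most in this sum: the mean of Ctsd went from 569 TPM at 0 h to 649.5 TPM at 24 h. Some of the 32 had a lower mean at 24 h, such as Ctsc (100.2 TPM at 0 h and 83.75 TPM at 24 h). No such sum was taken for other genes. Ctsd shares 34.4% of its exon bases with the predicted gene Gm49369 on the same strand, which averaged 129 counts per library beside 41710 for Ctsd. On the opposite strand, Npc1 shares 4.52% with Rmc1, which averaged 2140 counts beside 1673 for Npc1. Lamp1 shares 9.31% with Grtp1, which averaged 1530 counts beside 20470 for Lamp1. Ctsb shares 12.8% with Fdft1, also on the opposite strand. Fdft1 averaged 16500 counts per library. The levels of Ctsb and Npc1 are thus uncertain where reads of overlapping genes were not separated by strand.

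**Figure D1:**
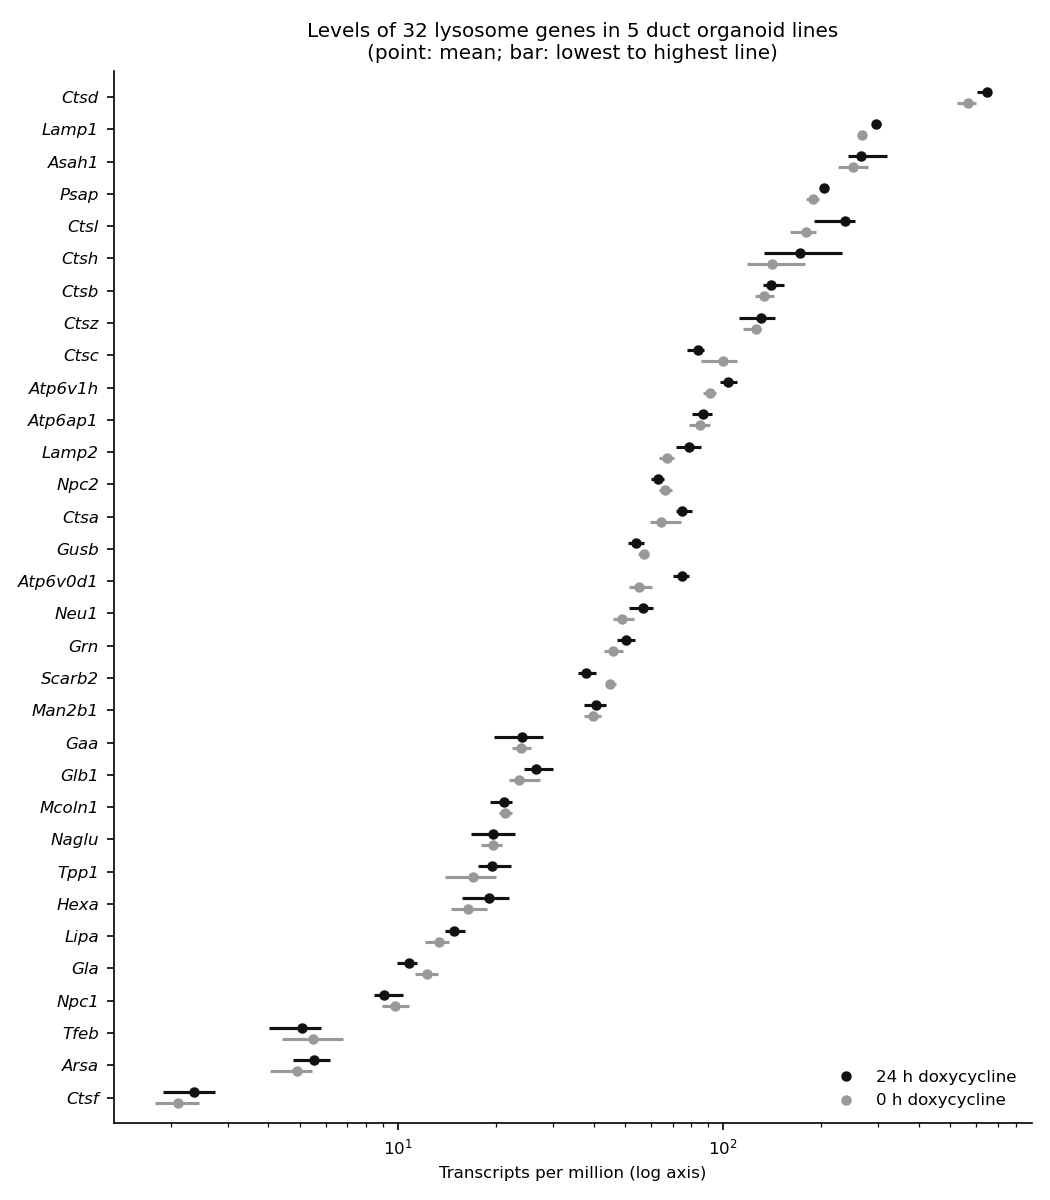
Level per length (TPM, log axis) of the 32 lysosome genes in 5 organoid lines, with 24 h of doxycycline in black above 0 h in grey; points are means and bars run from the lowest to the highest line. Ctsd leads at 569 TPM at 0 h and Ctsf is last at 2.11 TPM, and for Atp6v0d1 and Lamp1 the 24 h bar lies to the right of the 0 h bar.

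After 24 h of doxycycline, most of the lysosome genes stood slightly above their 0 h level in all lines. Taking the 5 lines together, 12 of the 32 genes rose and 2 fell (edgeR's quasi-likelihood test, Benjamini-Hochberg adjusted p below 0.05 over all features), which is 43.8% called, against 18.8% of all 16462 features. Among all features 10.9% were called higher and 7.98% lower. The 12 were the pump genes Atp6v0d1, Atp6v1h and Atp6ap1, the membrane proteins Lamp1 and Lamp2, the peptidases Ctsl, Ctsa and Ctsd, the sialidase Neu1, the lipid genes Psap and Lipa, and Grn; Scarb2 and Ctsc fell. The changes were small, with fitted log2 changes between -0.24 and 0.47 over the 32 genes and a median of 0.17, against a median of 0.0009 over all features. With the line as a block, which removes the level differences between lines, 22 were called higher and 3 lower, against backgrounds of 20.8% and 15.6%, and all 14 genes were among them. Counted by line, 18 genes were higher at 24 h than at 0 h in all 5 lines (56.2%, against 21.9% of all features). Ctsc, Gla and Scarb2 were lower in all 5 (3 of the 32, against 18.2% of all features). The 24 h values lay above every 0 h value for 10 genes (31.2%, against 7.88% of all features) and below every one for Scarb2 (3.12%, against 5.28%). In TPM, which is scaled by effective length and not by TMM, 6 of the 10 lay above (18.8% of the list, against 4.04% of all features), and the values of Atp6ap1, Ctsa, Ctsl and Neu1 overlapped.

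**Figure D2:**
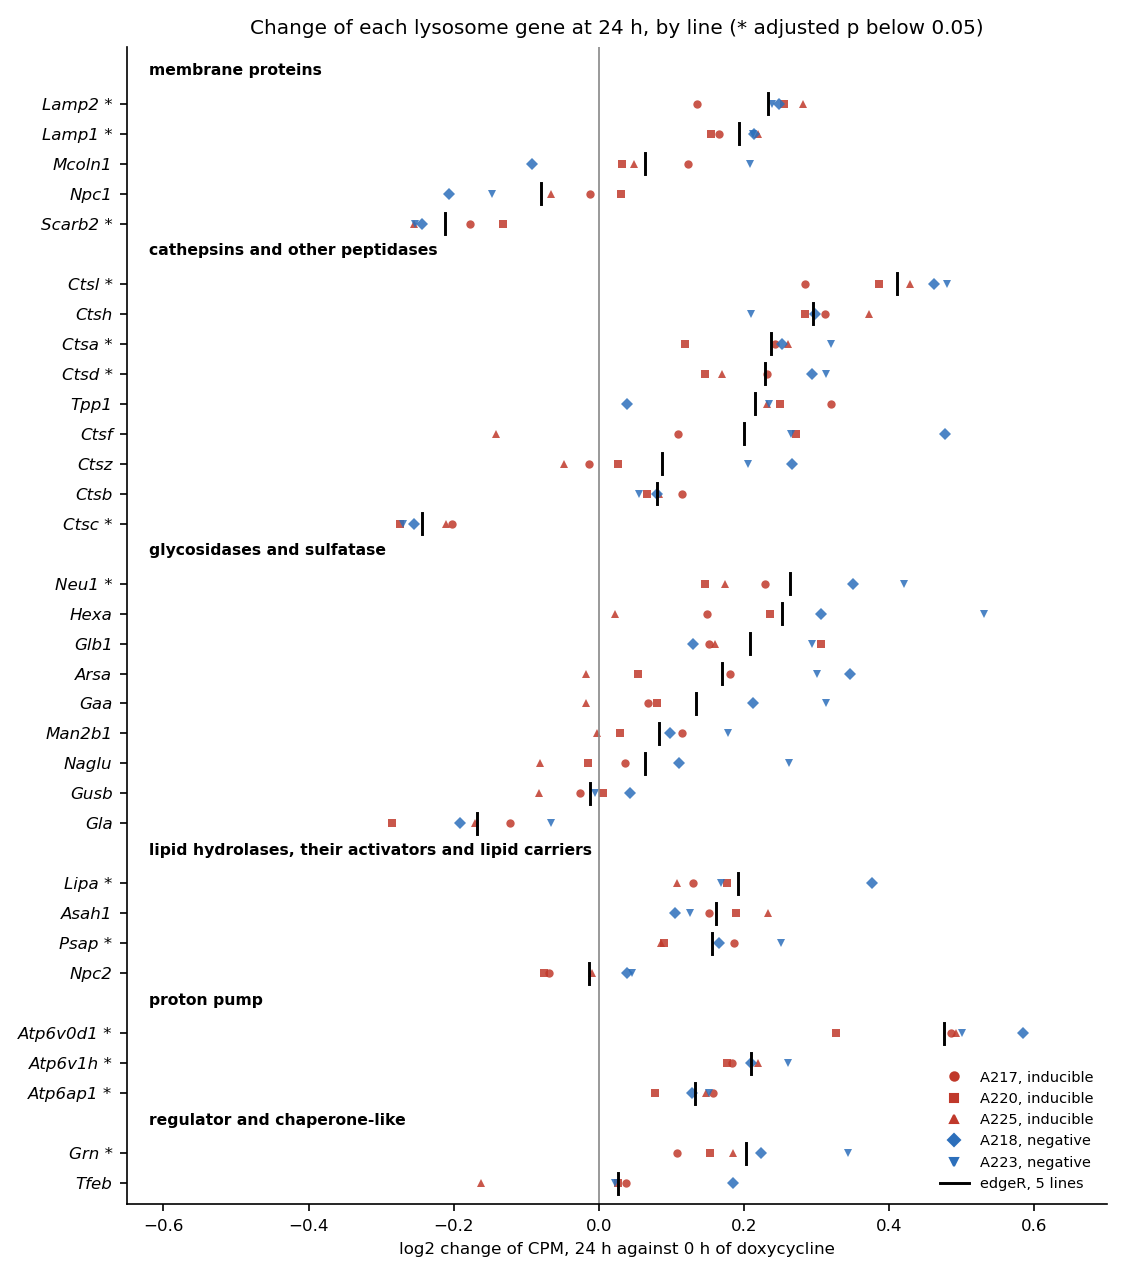
Change of each lysosome gene in each line, grouped by role, as log2 of CPM at 24 h over 0 h of doxycycline. An average of 0.5 counts was added before taking logs. Red marks inducible and blue negative lines, the black bar is edgeR's estimate over the 5 lines, and asterisks mark an adjusted p below 0.05. The points of Atp6v0d1 lie between 0.33 and 0.58, and those of Scarb2 and Ctsc are below 0 in every line.

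The proton pump was the role in which all members rose. Atp6v0d1, a subunit of the membrane sector of the pump encoded at chr8:105524465-105566047 on GRCm38 (minus strand), had the largest change of the 32 genes. Atp6v0d1 was at 53.0, 53.8 and 74.2 CPM (0, 4 and 24 h) in A217, 62.1, 61.3 and 77.9 in A220, 52.0, 56.2 and 73.1 in A225, 54.4, 56.5 and 81.5 in A218 and 57.6, 56.7 and 81.4 in A223. The 24 h values, 73.1 to 81.5 CPM, lay clear of all values at 0 and 4 h, and the log2 change at 24 h was 0.47 ± 0.0528 (SE, adjusted p = 0.000147, edgeR). Atp6v1h, a subunit of the cytosolic sector that couples to the membrane sector, rose by a smaller amount. Atp6v1h was at 113, 126 and 129 CPM (0, 4 and 24 h) in A217, 109.8, 117 and 124 in A220, 117, 121 and 136 in A225, 117, 122 and 136 in A218 and 111, 112 and 133 in A223. Every 24 h value was above every 0 h value (log2 change 0.21 ± 0.0386, adjusted p = 0.00343, edgeR), and the 4 h value was above that at 0 h in all 5 lines without passing the test. Atp6ap1, an accessory protein of the pump, rose least. Atp6ap1 was at 104, 103 and 116 CPM (0, 4 and 24 h) in A217, 108, 110.0 and 114 in A220, 107, 108 and 118 in A225, 105, 108 and 115 in A218 and 100.3, 98.7 and 112 in A223. The 24 h and 0 h values did not overlap (log2 change 0.13 ± 0.0340, adjusted p = 0.0183, edgeR). With an offset for effective transcript length its change was 0.07 and its adjusted p 0.348, and its call was also lost with no expression filter (adjusted p 0.0585) and without the 0 h library of A217 or A223, or the 24 h library of A218 or A225 (adjusted p 0.0559 to 0.0769).

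Of the 5 membrane proteins, Lamp1 and Lamp2 rose and Scarb2 fell. Lamp1 lies at chr8:13159161-13175338 on GRCm38 (plus strand). Lamp1 was at 382, 372 and 429 CPM (0, 4 and 24 h) in A217, 394, 389.7 and 438 in A220, 379, 382 and 441 in A225, 374, 371 and 433 in A218 and 370.2, 353 and 429 in A223. The lines differed little, and the 24 h values were all above the 0 h values (log2 change 0.19 ± 0.0313, adjusted p = 0.00168, edgeR). Lamp2, which takes part in the fusion of autophagosomes with lysosomes and in chaperone-mediated autophagy, also rose. Lamp2 was at 109.7, 110.3 and 121 CPM (0, 4 and 24 h) in A217, 112, 114 and 134 in A220, 115, 119 and 140.0 in A225, 113, 111 and 134 in A218 and 109, 116 and 128 in A223. The 24 h values again lay above all 0 h values (log2 change 0.23 ± 0.0421, adjusted p = 0.00316, edgeR). Scarb2, a lysosomal membrane protein of the scavenger receptor family, went the other way (chr5:92441314-92506833 on GRCm38, minus strand). Scarb2 was at 149.7, 132 and 132 CPM (0, 4 and 24 h) in A217, 138, 126 and 126 in A220, 138, 122 and 115 in A225, 139.5, 121 and 118 in A218 and 137, 119.5 and 114 in A223. In every line the level was lower at 4 h and at 24 h than at 0 h, and neither the 4 h nor the 24 h values overlapped those at 0 h. Its log2 change was -0.21 ± 0.0420 at 24 h (adjusted p = 0.00509, edgeR). Mcoln1, the calcium channel of the lysosomal membrane, held both a CLEAR core and a further E-box. Mcoln1 was at 25.01, 24.0 and 27.2 CPM (0, 4 and 24 h) in A217, 26.2, 26.3 and 26.8 in A220, 24.7, 24.5 and 25.5 in A225, 25.6, 27.1 and 24.0 in A218 and 22.9, 25.2 and 26.5 in A223. Its values at 24 h and 0 h overlapped (log2 change 0.06 ± 0.0539, adjusted p = 0.452, edgeR). The cholesterol exporter Npc1 was at 30.2 to 36.0 CPM at 24 h, against 31.5 to 35.2 CPM at 0 h, which also overlapped.

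Among the 9 peptidases, Ctsl, Ctsa and Ctsd rose and Ctsc fell. Ctsl, a cysteine endopeptidase at chr13:64359337-64370890 on GRCm38 (minus strand), had the second largest change of the 32 genes. Ctsl was at 157, 153 and 191 CPM (0, 4 and 24 h) in A217, 180.2, 191 and 235 in A220, 189, 184 and 254 in A225, 179.8, 176 and 248 in A218 and 172, 157 and 239 in A223. A217 was the lowest line at all 3 times, and its 24 h value only just exceeded the highest 0 h value (log2 change 0.41 ± 0.0833, adjusted p = 0.00582, edgeR). Ctsa, a carboxypeptidase that also stabilises the sialidase Neu1 in a complex, held CLEAR cores beginning at bases -13 and 5. Ctsa was at 77.0, 75.9 and 91.2 CPM (0, 4 and 24 h) in A217, 84.3, 81.4 and 91.5 in A220, 71.6, 70.9 and 85.9 in A225, 75.01, 77.0 and 89.3 in A218 and 71.2, 67.1 and 88.8 in A223. The 24 h values were above all 0 h values (log2 change 0.24 ± 0.0542, adjusted p = 0.0106, edgeR). Ctsd, the gene with the highest level, rose by a similar amount. Ctsd was at 726, 699.6 and 851 CPM (0, 4 and 24 h) in A217, 821, 839 and 909 in A220, 801, 791 and 900.1 in A225, 742, 762 and 909.6 in A218 and 739, 678 and 918 in A223. No 24 h value fell within the range at 0 h (log2 change 0.23 ± 0.0558, adjusted p = 0.0142, edgeR), but without the 0 h library of A217 the adjusted p was 0.0512. Ctsc, a dipeptidyl peptidase known for activating granule proteases of immune cells, fell. Ctsc was at 154, 154 and 134 CPM (0, 4 and 24 h) in A217, 156, 159.8 and 129 in A220, 133, 137 and 115 in A225, 149.5, 155 and 125 in A218 and 151, 149 and 125 in A223. Each line was lower at 24 h than at 0 h, though A225 at 0 h lay below A217 at 24 h, so the groups overlapped (log2 change -0.24 ± 0.0584, adjusted p = 0.0135, edgeR). With the offset for effective length the adjusted p of Ctsc was 0.0553.

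Ctsb, a cysteine protease, is often measured with Ctsd and Ctsl. Ctsb was at 223.2, 227 and 242 CPM (0, 4 and 24 h) in A217, 241, 233 and 253 in A220, 216.5, 221 and 229 in A225, 237, 236 and 251 in A218 and 226, 214 and 234 in A223. All 5 lines were higher at 24 h than at 0 h but the groups overlapped (log2 change 0.08 ± 0.0449, adjusted p = 0.243, edgeR), and with the line as a block the adjusted p was 0.0268. The aminopeptidase Ctsh, singled out after its values were seen, differed widely between lines. Ctsh was at 159.9, 159 and 199 CPM (0, 4 and 24 h) in A217, 114, 109 and 139 in A220, 103, 108 and 134 in A225, 117, 113 and 143 in A218 and 98.0, 93.4 and 113 in A223. A217 was above all other lines at each time, and every line was higher at 24 h by 0.21 to 0.37 on the log2 scale. Without the block Ctsh did not pass (log2 change 0.30 ± 0.158, adjusted p = 0.217, edgeR), and with the line as a block it did (adjusted p = 4.52e-06). The tripeptidyl peptidase Tpp1 and the carboxypeptidase Ctsz likewise passed with the block (adjusted p = 0.00239 and 0.0344, edgeR) and not without it (0.161 and 0.257), and Ctsf passed in neither fit.

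Of the 9 glycosidases and sulfatases, 1 rose. Neu1, the sialidase that removes sialic acids from glycans, lies at chr17:34931253-34935953 on GRCm38 (plus strand). Neu1 was at 76.7, 79.3 and 89.8 CPM (0, 4 and 24 h) in A217, 88.0, 92.0 and 97.4 in A220, 78.3, 77.9 and 88.3 in A225, 82.2, 88.2 and 105 in A218 and 76.1, 76.1 and 102 in A223. The highest 0 h value, that of A220, lay just under the lowest 24 h value, that of A225 (log2 change 0.26 ± 0.0607, adjusted p = 0.0113, edgeR). With the line as a block, Hexa, Glb1, Arsa, Gaa and Man2b1, which remove hexosamines, galactose, sulfate, glucose and mannose from their substrates, were also called higher, by 0.08 to 0.25 on the log2 scale. DESeq2, run without a block, called Glb1 higher (adjusted p = 0.0447) and the other 4 not. The call of Arsa is for the sum of its transcripts, of which a retained-intron transcript held 48.4% over all libraries. The share of its coding transcript was mostly lower at 24 h, so a rise of the coding transcript is not shown. The α-galactosidase gene Gla, which held 2 CLEAR cores, was called lower with the block (log2 change -0.17 ± 0.0490, adjusted p = 0.0164, edgeR) and by DESeq2 (adjusted p = 0.0385), and was lower at 24 h in all 5 lines. It was at 20.97 to 23.2 CPM at 24 h, against 22.0 to 26.5 CPM at 0 h, so its groups overlapped. Naglu and Gusb passed in neither fit.

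Neu1 was also the 1 gene of the 32 whose transcript shares separated 24 h from 0 h, in 2 of the 43 transcripts described. How often shares separate among all genes was not counted. Mcoln1-201 came close, at 82.9 to 87.6% at 24 h against 79.4 to 83.0% at 0 h. So did Grn-201, at 98.6 to 99.1% against 97.5 to 98.7%. The coding transcript Arsa-202 held 32.8 to 56.6% of the counts of Arsa at 24 h, against 56.0 to 60.9% at 0 h. The retained-intron transcript Arsa-201 held 41.8 to 66.6%, against 37.8 to 43.8%, so both overlapped. Of the 32 genes, 21 had a single annotated transcript with at least 10% of the gene's counts, 11 had several, and 5 had such a transcript that retains an intron. The coding transcript Neu1-201 held 86.6 to 89.0% of the gene's estimated counts at 24 h, against 82.1 to 85.8% at 0 h. The retained-intron transcript Neu1-202 held 13.8 to 17.6% at 0 h, 16.8 to 19.3% at 4 h and 11 to 13.4% at 24 h. The coding transcript stood at 74.7 to 88.8 CPM at 24 h, against 62.7 to 75.3 CPM at 0 h (here without TMM scaling). The retained-intron transcript stood at 9.82 to 12.3 CPM at 24 h, against 12.2 to 13.8 CPM at 0 h, and was lower at 24 h in each line. For Lamp2 the transcripts Lamp2-202 and Lamp2-201 held 61.1% and 37.7% of the counts over all libraries, and their shares at 24 h and 0 h overlapped. These shares are kallisto's estimates from reads that overlapping transcripts have in common, and were not tested.

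**Figure D3:**
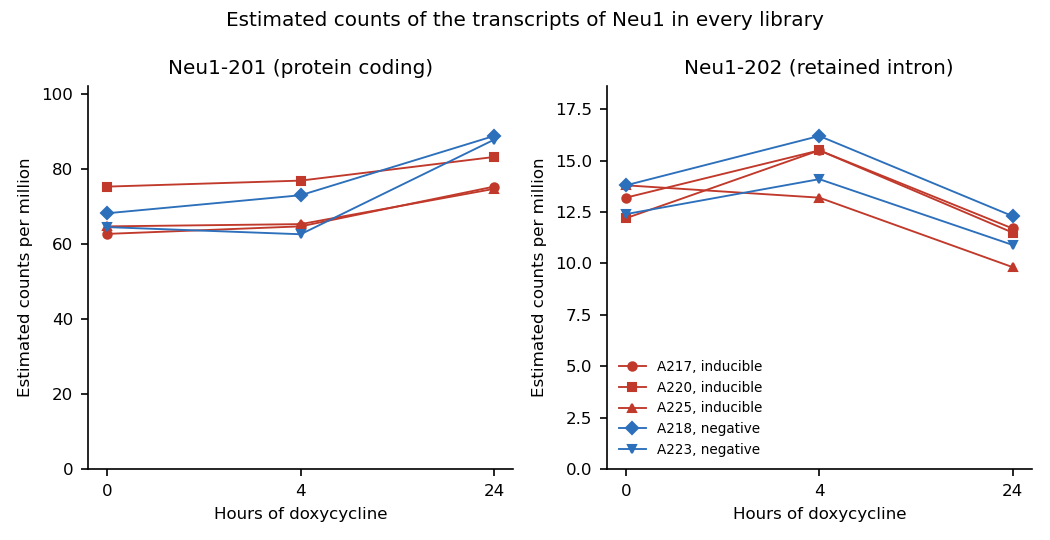
Level (CPM, without TMM scaling) of the coding (left) and the retained-intron (right) transcript of Neu1 in every line at 0, 4 and 24 h of doxycycline, with red for inducible and blue for negative lines. At 24 h the coding transcript was at 74.7 to 88.8 and the retained-intron transcript at 9.82 to 12.3, against 62.7 to 75.3 and 12.2 to 13.8 at 0 h.

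Of the 4 lipid genes, Psap and Lipa rose. Psap encodes the precursor of the saposins, which present sphingolipids to their hydrolases. Psap was at 316, 305 and 360.0 CPM (0, 4 and 24 h) in A217, 331, 316 and 352 in A220, 333, 338 and 353 in A225, 319, 327 and 358 in A218 and 299, 303 and 356 in A223. The 24 h values were above all 0 h values (log2 change 0.16 ± 0.0391, adjusted p = 0.0168, edgeR), but the call was lost without the 0 h library of A217 or A223 or the 24 h library of A218 (adjusted p 0.0503 to 0.0698). Lipa, the acid lipase that frees cholesterol from its esters, was among the less abundant of the 32 genes. Lipa was at 27.5, 31.4 and 30.1 CPM (0, 4 and 24 h) in A217, 28.1, 28.9 and 31.8 in A220, 25.3, 27.5 and 27.3 in A225, 23.2, 26.4 and 30.1 in A218 and 25.5, 26.0 and 28.7 in A223. Its groups overlapped (log2 change 0.19 ± 0.0599, adjusted p = 0.0412, edgeR), and its call held in only 5 of the 19 alternative fits, with adjusted p between 0.00305 and 0.149. Leaving out any single 0 h or 24 h library except that of A225 at 24 h ended the call (adjusted p 0.0575 to 0.149). Asah1 was higher at 24 h in all 5 lines and missed the threshold without the block (adjusted p = 0.0519, edgeR). It passed with the line as a block (adjusted p = 0.00048, edgeR) and by DESeq2 without one (adjusted p = 0.0318). Npc2, the luminal carrier that hands cholesterol to Npc1, was at 132 to 141 CPM at 24 h, against 128 to 149 CPM at 0 h, and passed in neither fit.

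Grn, whose product progranulin is cleaved in lysosomes into granulins, rose. Grn was at 68.8, 60.3 and 74.1 CPM (0, 4 and 24 h) in A217, 71.7, 66.3 and 79.7 in A220, 61.8, 64.5 and 70.2 in A225, 64.6, 66.9 and 75.4 in A218 and 63.2, 60.1 and 80.1 in A223. The highest 0 h value exceeded the lowest 24 h value (log2 change 0.20 ± 0.0524, adjusted p = 0.0191, edgeR). Its call was lost without the 0 h library of A218, A223 or A225 or the 24 h library of A220 or A223 (adjusted p 0.0537 to 0.0726). The transcript of the regulator Tfeb, whose activity is set mainly by phosphorylation, was low. Tfeb was at 6.56, 5.17 and 6.73 CPM (0, 4 and 24 h) in A217, 7.47, 6.32 and 7.61 in A220, 6.14, 6.90 and 5.48 in A225, 6.39, 7.47 and 7.27 in A218 and 6.97, 6.05 and 7.08 in A223. Its values overlapped between all times (log2 change at 24 h 0.03 ± 0.113, adjusted p = 0.905, edgeR), and the sign of this change turned with the offset for effective length and without 1 of 3 libraries. Set against the promoter windows, 5 of the 12 genes with an E-box rose at 24 h and 6 of the 15 without one, with medians of 0.20 and 0.13 on the log2 scale. Of the 5 with a CLEAR core, Atp6v0d1, Ctsa and Ctsd rose, against 8 of the 22 without it. Gla and Mcoln1, which also held a core, were not called without the block, and Gla was lower in all 5 lines. Over all features 10.9% were called higher, and this share was not split by motif. A link between motif and response was not tested.

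**Figure D4:**
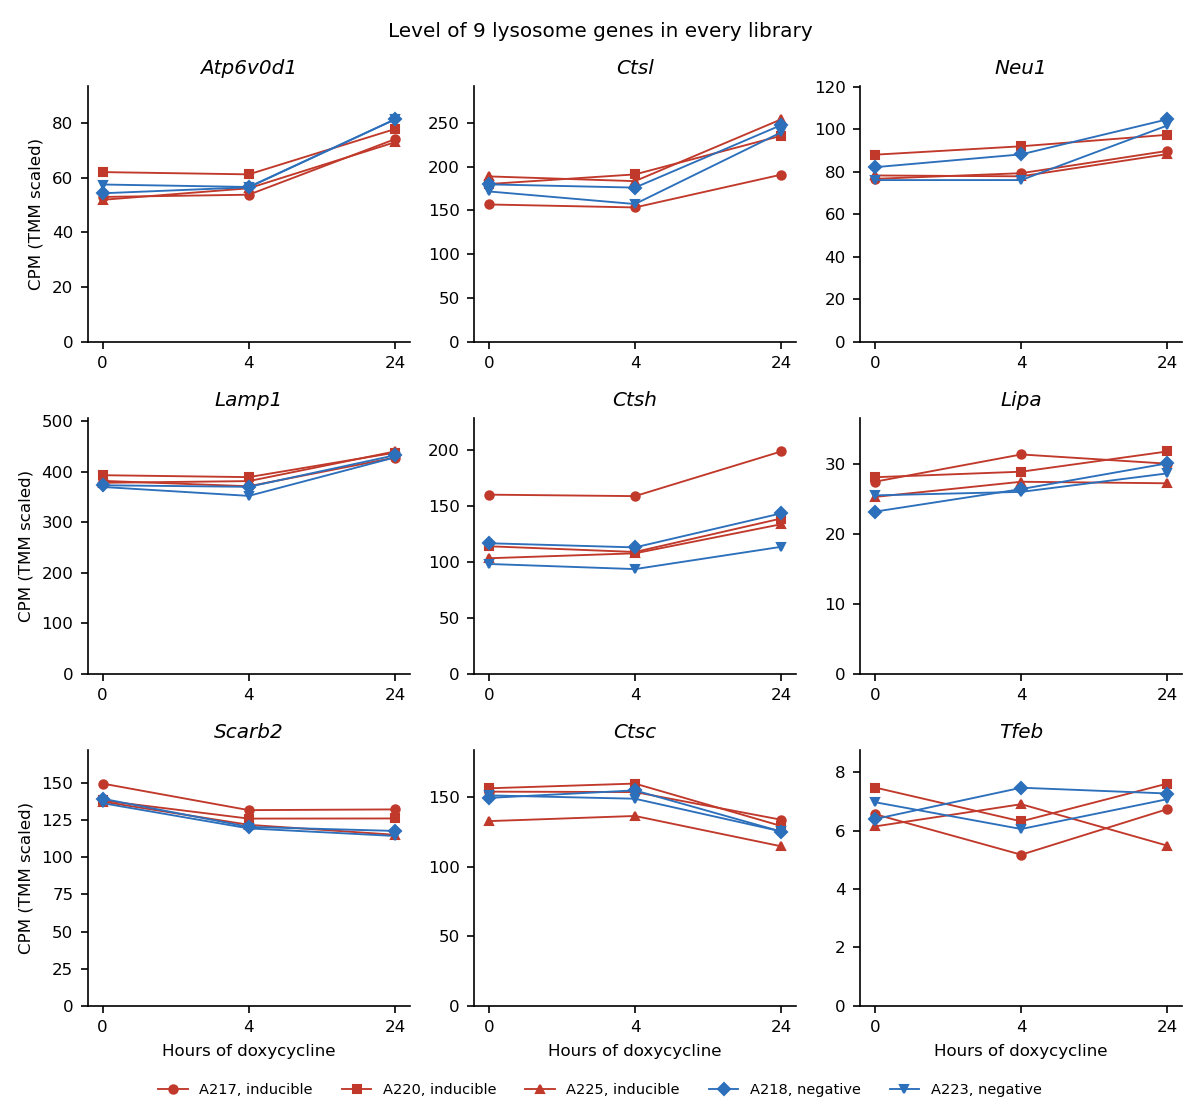
Level of 9 of the genes (CPM, TMM scaled, axes from 0) in every line at 0, 4 and 24 h of doxycycline, with red for inducible and blue for negative lines. Atp6v0d1 moves between 4 and 24 h in every line, Scarb2 is already lower at 4 h, Ctsh is highest in A217 throughout, and Tfeb shows no common direction.

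At 4 h no lysosome gene passed edgeR's test without the line as a block. Over the 5 lines 0 of 32 were called by edgeR, against 0.917% of all features, with 1 at an unadjusted p below 0.05 (Scarb2; 3.12%, against 12% of all features), and the median log2 change was -0.02. In inducible lines 0 were called, against 0.298% of features, and in negative lines 0, against 0.121%, with Scarb2 again the 1 gene at an unadjusted p below 0.05 in each (against 7.6% and 6.31% of features). DESeq2 called 1 gene over the 5 lines (3.12% of the list, against 3.33% of features) and 0 in either genotype. Limma-voom with a random block for line called 1 over the 5 lines (against 6.70% of features), 1 in inducible lines (against 1.66%) and 0 in negative lines. With the line as a fixed block edgeR called Scarb2 lower and no other gene, by -0.18 ± 0.0272 over the 5 lines (adjusted p = 0.00121), by -0.16 ± 0.0351 in inducible lines (adjusted p = 0.0232) and by -0.20 ± 0.0431 in negative lines (adjusted p = 0.0299). The backgrounds called lower in these fits were 4.96%, 1.72% and 1.24%, beside 3.12% for 1 gene of 32. Arsa, Atp6v1h and Lipa were higher at 4 h in all 5 lines and Man2b1, Npc2 and Scarb2 lower in all 5, which for each direction is 9.38% of the list, against 10.4% and 10.8% of all features.

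The 24 h responses of the genotypes were measured in separate libraries, at 0 h as well as at 24 h. In inducible lines 4 genes rose, Atp6v0d1 (log2 change 0.43 ± 0.0681), Lamp2 (0.23 ± 0.0544), Atp6v1h (0.19 ± 0.0498) and Lamp1 (0.18 ± 0.0405), which is 12.5% of the list, against 3.44% of features called higher (edgeR, adjusted p between 0.00492 and 0.0451). In negative lines 3 genes rose, Atp6v0d1 (0.54 ± 0.0834), Neu1 (0.38 ± 0.0960) and Lamp1 (0.21 ± 0.0495), which is 9.38%, against 2.73% of features called higher (edgeR, adjusted p between 0.00508 and 0.0449). Atp6v0d1 and Lamp1 were thus called in each genotype, with a spread estimated over all 15 libraries and so shared by the genotypes. In inducible lines neither was called when only the groups compared were fitted. The median log2 change over the 32 genes was 0.12 in inducible and 0.21 in negative lines. With the line as a block, 14 were called higher and 3 lower in inducible lines, against 14.0% and 10.2% of features, and 18 higher and 2 lower in negative lines, against 13.6% and 8.83%. The counts without the block rest on few libraries. In inducible lines 7 genes were called without the 24 h library of A217 (against 12.2% of features), 2 without the 0 h library of A225 (against 2.26%), and 1 without any other of the 6 libraries (against 1.34 to 2.6%). In negative lines 1 was called without the 24 h library of A218 (against 0.752% of features) and 0 without any other of the 4 (against 0.315 to 0.425%).

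No lysosome gene passed edgeR's test of a difference in response between the genotypes. At 4 h 0 of 32 passed, against 0.0121% of features, with 0 at an unadjusted p below 0.05. At 24 h 0 passed, also against 0.0121%, with 1 at an unadjusted p below 0.05 (3.12%, against 2.51% of features). DESeq2 and limma-voom called 0 at both times. With the line as a block 0 passed at 4 h and at 24 h, against 0.0182% and 0.0243% of features, with 0 and 5 at an unadjusted p below 0.05 (0% and 15.6% of the list, against 4.55% and 8.04% of features). The gene without the block was Ctsz, at 103, 119 and 111 CPM in inducible lines at 24 h, against 131.1 and 131.2 CPM in negative lines. Its 24 h response was smaller in inducible lines by -0.25 ± 0.103 on the log2 scale (edgeR, adjusted p = 1, 0.0339 before adjustment). The 5 with the block were Ctsz, Neu1, Hexa, Naglu and Gaa, all with smaller responses in inducible lines (log2 differences -0.20 to -0.28, adjusted p 0.492 to 0.595, edgeR). Over the 32 genes the difference at 24 h was negative for 24, with a median of -0.08. Among all features 47.9% had a positive difference, and the median was -0.008. At 0 h edgeR's estimate was higher in inducible than in negative lines for 24 of the 32, against 54.7% of all features (median 0.04, against 0.0135). DESeq2's estimate was higher for 20, against 51.5% of features, and in both fits 0 of the 32 had an unadjusted p below 0.05. At 24 h inducible lines were higher for 15 by edgeR, against 51.3% of features (median -0.007, against 0.0044). Whether the levels at 0 h account for the difference was not tested. Npc2 was lower at 24 h in all 3 inducible lines and higher in both negative lines, by less than 0.1 on the log2 scale in each, and the test of the difference gave an adjusted p of 1 (edgeR).

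**Figure D5:**
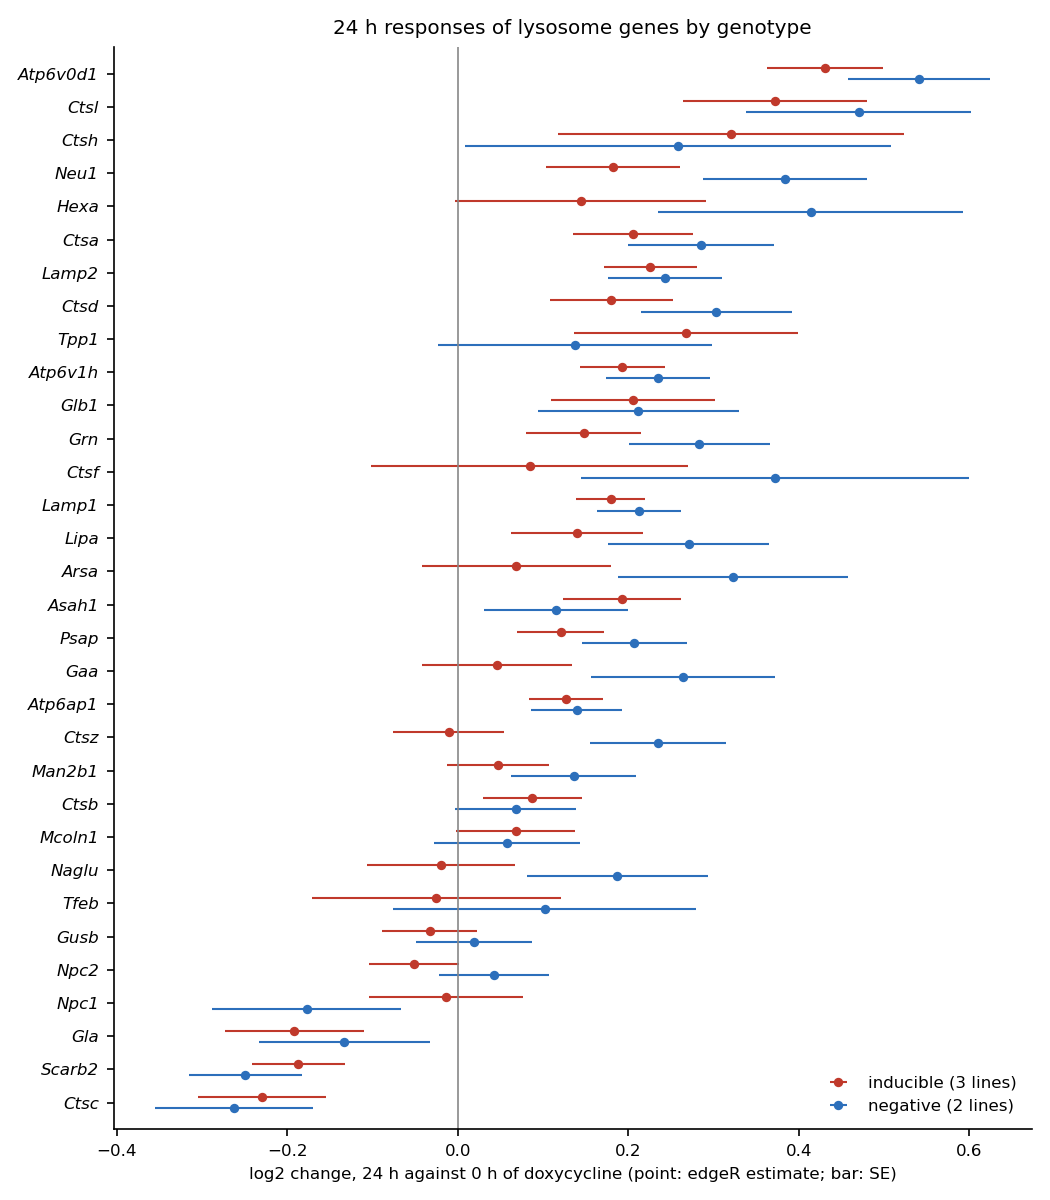
log2 change at 24 h against 0 h of doxycycline for the 32 genes, with inducible lines (red, 3 lines) above negative lines (blue, 2 lines); points are edgeR estimates and bars are SE. Atp6v0d1 is at 0.43 in inducible and 0.54 in negative lines, and Ctsz, Neu1, Hexa, Naglu and Gaa show larger changes in negative lines, none with an adjusted p below 0.05 for the difference.

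No lysosome gene passed edgeR's test between inducible and negative lines at any time. At 0 h 0 of 32 were called, against 0% of features, with 0 at an unadjusted p below 0.05. At 4 h and at 24 h 0 were called, against 0.0121% of features at each time, with 0 and 2 at an unadjusted p below 0.05. The 2 are 6.25% of the list, against 5.75% of all features, so the count is near the background. DESeq2 called 0 at each time, with 0, 1 and 3 at an unadjusted p below 0.05 (at 24 h 9.38%, against 5.51% of features), and limma-voom called 0, with 0, 0 and 4 (at 24 h 12.5%, against 5.51%). The 2 genes at 24 h were Ctsz (log2 difference -0.24 ± 0.0728) and the heparan sulfate glycosidase Naglu (-0.22 ± 0.0967), both lower in inducible lines with an adjusted p of 0.856 by edgeR. The CPM values of the genotypes at 24 h did not overlap for 7 of the 32 genes (21.9%, against 19.7% of all features), a total also near the background. Of the 7, 6 were lower in inducible lines (18.8% of the list, against 10.4% of all features), and 1, Npc1, was higher.

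Of the hydrolases, membrane proteins and pump subunits outside the 32, all that passed the test at 24 h without the block were higher. Over the 5 lines, edgeR called 7 of 29 further hydrolases higher and 0 lower, 7 of 23 further membrane proteins higher and 0 lower, and 9 of 18 further pump subunits higher and 0 lower, against 10.9% and 7.98% of all features. The hydrolases called higher included the cysteine protease Ctso (log2 change 0.55 ± 0.0815), the GM2 activator Gm2a (0.50 ± 0.0992) and the iduronate sulfatase Ids (0.29 ± 0.0794). Of the membrane proteins, the nucleoside transporter Slc29a3 changed most (1.79 ± 0.101), followed by Tmem106b (0.40 ± 0.0634), the channel Tpcn1 (0.39 ± 0.107) and the channel Tmem175 (0.30 ± 0.0605). Of the pump subunits, the catalytic subunit Atp6v1a led (0.68 ± 0.0559), followed by Atp6v1d (0.40 ± 0.0614), Atp6v0e (0.34 ± 0.0451) and Atp6v1e1 (0.31 ± 0.0480). The median changes of the 3 lists were 0.15, 0.11 and 0.18 on the log2 scale. These lists, and those that follow, were also chosen with earlier results of these data known.

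Genes around the lysosome were counted in the same way. At 24 h the background was again 10.9% of all features called higher and 7.98% called lower. Of 25 genes that sort proteins to lysosomes, 7 were called higher and 0 lower at 24 h by edgeR, led by Vps41 of the HOPS tethering complex (log2 change 0.29 ± 0.0444), the sorting receptors Sort1 (0.23 ± 0.0701) and Igf2r (0.21 ± 0.0449), and Vps35 of the retromer (0.17 ± 0.0513). Of 23 relatives of Tfeb and nutrient signalling genes, 4 were higher, Fnip1 (0.28 ± 0.0707), Tfe3 (0.26 ± 0.0472), Lamtor4 (0.25 ± 0.0615) and Rraga (0.21 ± 0.0507), and Zkscan3, described as a repressor of autophagy genes, was lower (-0.17 ± 0.0470). Tfe3 is a close relative of Tfeb that binds the same element. Of 35 autophagy genes 21 were called higher and 1 lower, with a median of 0.21. The largest rises were those of Map1lc3a (0.49 ± 0.0915), Wipi1 (0.48 ± 0.111), Atg10 (0.46 ± 0.0767) and Calcoco1 (0.41 ± 0.0745), and Atg2b fell (-0.11 ± 0.0343). At 4 h over the 5 lines 3 genes of these 6 lists were called, all higher, against 0.917% of all features, with the list sizes given for 24 h. They were Slc29a3 of the membrane proteins (1.24 ± 0.100), Atp6v1a of the pump subunits (0.28 ± 0.0558) and Lamtor3 of the nutrient signalling genes (0.19 ± 0.0401). In the difference of 24 h responses between the genotypes edgeR called 0 genes of the 6 lists, with and without the line as a block.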

How the data were processed

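Total RNA was depleted of ribosomal RNA and sequenced as paired ends after a TruSeq preparation, per the labels' protocols. The submitters' processing notes name kallisto 0.43.1, the GRCm38 build, DESeq2 1.18.1 and DESeq. Each deposited file gives, per transcript, an estimated count from kallisto with no normalisation, an effective length and the authors' TPM value, per the file headers. The sources used here do not give the strand setting, so where genes overlap on opposite strands their reads cannot be told apart.

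Estimated counts were summed per gene with GENCODE M21, which may not be the authors' release, and rounded to whole numbers. Of 109304 listed transcripts 1295 found no match and were left out. Library totals were 47915632 to 59411540. TPM values were summed per gene only to compare levels between genes. Pairs of libraries of a group differed by a chi-square per degree of freedom of 16.02 to 47.45, so none was a copy.

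Genes were tested with the quasi-likelihood F test of edgeR 4.0.16 (R 4.3.3) after TMM scaling and filterByExpr, and the model gave 1 mean to each of 6 groups over all 15 libraries. A gene was called at a Benjamini-Hochberg adjusted p below 0.05, taken over 16462 features within each of 11 comparisons. The contrast over 5 lines weights each line equally. Lines pair the libraries across times by design. The deviations of a line's libraries from their group means had correlations of 0.32 to 0.435 in inducible and 0.192 to 0.243 in negative lines. With a replicate block for line the biological coefficient of variation was 0.058, against 0.157 without it. This fit cannot test inducible against negative lines at 1 time. Other alternatives were limma-voom (limma 3.58.1) with a random block for line (correlation 0.417), DESeq2 1.42.0, median-of-ratios scaling, 2 other filters, an offset for effective length, only the groups compared, and leaving out each library. An offset for GC content and length, and a count of non-overlapping genes in TPM, were added after the data were seen. The edgeR fit was tested on simulated data.

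Values in every library are given for genes called in any comparison and for Lamp1, Lamp2, Ctsb, Ctsd, Ctsl, Tfeb, Mcoln1 and Grn, and of other lists at most 4 genes per direction. The 32 genes and the lists, which come from textbook knowledge, were chosen with earlier results of these data known. Promoter sequences are those of RefSeq on GRCm38.p6.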

Additional observations from a re-analysis of the deposited data

How the results depend on the processing

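Over the 5 lines at 24 h the number of the 32 genes called was 14 by the main test (18.8% of all features were called), 25 with a replicate block for line (36.5%), 21 with limma-voom (34.1%), 17 with DESeq2 (22.6%), and 11 to 15 under each of the other alternatives (10.2 to 24.9%); leaving out 1 library gave 11 to 14 (10.9 to 23.1%). Of the 14 genes, 8 (Atp6v0d1, Atp6v1h, Ctsa, Ctsl, Lamp1, Lamp2, Neu1 and Scarb2) kept their call under all 19 alternatives. At 4 h over the 5 lines the count of 0 became 1 with the block, with limma-voom and with DESeq2 (8.87%, 6.7% and 3.33% of features). In inducible lines at 4 h it became 1 with the block and with limma-voom (3.05% and 1.66%), and in negative lines 1 with the block (2.04%). At 24 h in inducible lines the count of 4 (4.93% of features) became 17 with the block (24.2%), 15 with limma-voom (20.6%), 7 with DESeq2 (11%), 1 with no expression filter (2.68%), 0 with only the groups compared (0.433%) and 9 with the offset for GC content and length (8.36%), and it ranged from 1 to 7 without 1 library (1.34 to 12.2%). At 24 h in negative lines the count of 3 (3.8% of features) became 20 with the block (22.5%), 18 with limma-voom (19%), 12 with DESeq2 (9.16%), 1 with the offset for effective length (2.38%), 12 with only the groups compared (11.4%) and 6 with the offset for GC content and length (6.6%), and it ranged from 0 to 1 without 1 library (0.315 to 0.752%). In each genotype at 24 h the share of all features called moved in the same direction as each of these counts. The causes of these shifts were not tested. The counts of 0 in the other comparisons were 0 under every alternative run. The block, or pairing by line, changed no direction of a named gene. Changes near 0 turned sign: Tfeb at -0.0795 with the offset for effective length and from -0.0506 to 0.0868 without 1 library (negative without the 0 h library of A218 or A225 or the 24 h library of A220), Gusb from -0.0481 to 0.0012 and Npc2 from -0.0358 to 0.0018 without 1 library. With 3 and 2 lines per genotype, differences of the size seen between the genotypes could not be told from the spread between lines.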
